A study of Mus musculus with 8 samples.

Results

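Mature oligodendrocytes (MOL) are the myelinating cells of the brain. The nuclei described here are those that the study's own annotation calls MOL: 5612 of 61949 nuclei, or 9.06%, in 8 single-nucleus RNA-seq libraries of 6-month-old mice, with 444 to 1018 MOL nuclei in each library. An oligodendrocyte precursor cell (OPC) leaves the cell cycle, passes through a newly formed stage (NFOL) in which the first myelin genes are switched on, and then wraps axons as a mature cell. Mature cells keep up a large output of myelin membrane, which takes cholesterol, long-chain fatty acids and galactolipids, and they feed the axons they enclose. Cnp encodes CNPase, an enzyme of the cytoplasm-filled parts of myelin, where it keeps open the channels that link the cell body with the inner tongue of the sheath.

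Each library was made from a brain hemisphere, from which olfactory bulb and cerebellum had been taken off, of mice labelled C57BL6/J, with 2 libraries for each of 4 genotypes: wild type (WT), Cnp-/-, 5xFAD and Cnp-/- 5xFAD. The Cnp-/- mice lack Cnp in every cell from conception, so the loss is not limited to oligodendrocytes. The 5xFAD mice carry mutant human transgenes of familial Alzheimer's disease under the Thy1 promoter, which is active in neurons, and develop amyloid plaques. The comparisons ask how MOL differ when CNPase is missing, when amyloid is deposited, and when both hold. The 4 libraries of the 2 genotypes without Cnp are called Cnp mutant, and the 4 libraries of WT and 5xFAD are called Cnp intact. Statements on the pooling of animals differ for these libraries, so a library may hold nuclei of more than 1 mouse, and p-values measure the spread between libraries.

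Counts of unique molecular identifiers (UMIs, each standing for 1 captured RNA molecule) were summed over the MOL nuclei of each library, which gave 819922 to 1801866 UMIs per library. Values are given as CPM, the counts scaled to a common total of UMIs over the summed nuclei, in the order of replicates 1 and 2 of each genotype. The median MOL nucleus held 1515 UMIs, against 4852 in NFOL, 3036 in OPC and 9105 in neurons, and the library medians ran from 1108 in Cnp-/- replicate 2 to 2020 in WT replicate 2. Of 5606 distinct MOL barcodes, 6 occurred in more than 1 library. The levels of the MOL markers are given as a description and do not check the label, since the annotation was itself made from these genes. Mbp, the major basic protein of compact myelin, lay between 4875 and 6393 CPM in MOL, Mog, an adhesion protein of the outermost lamella, between 1163 and 1490 CPM, and Mag, an adhesion protein facing the axon, between 1295 and 1529 CPM.

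Other cell types' markers were low in MOL. The 14 neuron markers together summed to between 2.05 and 271 CPM, with 10 of the 14 at a mean under 5 CPM, and the highest sum stood in WT replicate 1. That sum was 2.05 to 57.9 CPM in Cnp mutant and 18.0 to 271 CPM in Cnp intact libraries. The 10 astrocyte markers summed to 218 to 251 CPM in Cnp mutant and 244 to 441 CPM in Cnp intact libraries, highest in 5xFAD replicate 1. The 12 microglia markers summed to 8.54 to 47.1 and 12.7 to 42.7 CPM, and the 10 endothelial and pericyte markers to 9.23 to 23.1 and 0 to 20.2 CPM, with Cldn5, Ly6c1 and Abcb1a at 0 in all libraries.

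MOL were set against NFOL (465 nuclei) and OPC (1522 nuclei) as a description, without a test, since the annotation was itself made from these genes. Of 8761 genes with enough counts in MOL, all 8 MOL libraries lay above all 8 NFOL libraries for 1026 genes (11.7%) and below them for 642 (7.33%). Against OPC the numbers were 1734 genes (19.8%) above and 799 (9.12%) below. Genes with too few counts in MOL had been left out, so the numbers above and below cannot be weighed against each other.

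Myelin genes were higher at each later stage. Mbp averaged 65.4 CPM in OPC, 1618 in NFOL and 5533 in MOL. Mog went from 10.0 through 238 to 1323 CPM and Mag from 10.2 through 295 to 1401 CPM. These genes were thus present in NFOL at clearly lower levels. All 12 MOL markers and 13 of 16 myelin structural genes had every MOL library above every NFOL and every OPC library. Over all genes tested, 11.7% lay above NFOL and 19.8% above OPC. Aspa, the enzyme that splits N-acetylaspartate from axons, was 6.57 times as high in MOL as in NFOL and 143 times as high as in OPC, ratios larger than those of Mbp (3.42 and 84.6). Opalin, a transmembrane protein of mature oligodendrocytes, lay at 372 to 686 CPM in MOL and 30.8 to 134 CPM in NFOL.

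The lists of scaffold and supply genes differed in how many members were higher in MOL. Over all 8761 genes tested, 11.7% lay above NFOL in all libraries and 7.33% below. The lists were counted whole, with members that had too few counts in MOL to be tested. Of 16 genes of the myelin cytoskeleton 13 lay above NFOL in all libraries and none below, and of 17 axoglial adhesion genes 11 lay above and 2 below. Of 25 genes of cholesterol and fatty acid synthesis 6 lay above and 1 below, and of 12 galactolipid and sphingolipid genes 7 above and 1 below. Lipid uptake and efflux had 5 above and 3 below of 15, and energy and lactate 3 above and 3 below of 12. Of 20 genes that mark regional or functional MOL states 12 lay above NFOL in all libraries and none below. Il33, an alarmin that oligodendrocytes store in the nucleus, held 406 to 529 CPM in MOL and 41.4 to 168 CPM in NFOL. Transferrin (Trf), which carries iron and stands in the list of lipid uptake and efflux, held 931 to 1666 CPM in MOL and 100 to 308 CPM in NFOL.

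Of the 10 OPC markers 9 lay below NFOL and below OPC in every MOL library, beside 7.33% and 9.12% of all genes tested. The markers were counted whole, though only 4 of the 10 had enough counts in MOL to be tested. The genes tested were kept for their counts in MOL, which leaves out genes low in MOL. These shares are thus no like background for the markers. Pdgfra, the growth factor receptor that defines OPC, lay at 0 to 1.22 CPM in MOL, 280 to 459 CPM in NFOL and 708 to 1088 CPM in OPC. Vcan, an OPC matrix proteoglycan, lay at 0 to 4.26 CPM in MOL and 447 to 787 CPM in NFOL. Pcdh15, a protocadherin, kept 153 to 384 CPM in MOL. The exception was Olig1, a transcription factor of the whole lineage, at 48.0 to 136 CPM in MOL and 85.9 to 240 CPM in OPC. The 10 OPC markers together summed to 276 to 481 CPM in MOL, 11459 to 14548 CPM in NFOL and 20370 to 22686 CPM in OPC. Markers of other cell types were also higher in the nuclei labelled NFOL. Of 10 astrocyte markers 9, and of 14 neuron markers 7, had every MOL library below every NFOL library, beside 7.33% of all genes tested. Here too the lists were counted whole, with 3 astrocyte and 2 neuron markers having enough counts in MOL to be tested. The astrocyte markers summed to 218 to 441 CPM in MOL and 5171 to 11555 CPM in NFOL, and the neuron markers to 2.05 to 271 and 761 to 2023 CPM. Their part in the differences between MOL and NFOL was not tested.

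The NFOL markers did not behave as a block. Fyn, a kinase that acts early in myelination, and Itpr2, a calcium release channel of the endoplasmic reticulum, lay below NFOL in every MOL library, at 51.2 to 148 against 651 to 1432 CPM and 11.1 to 31.9 against 492 to 958 CPM. Bcas1, which marks early myelinating cells, stayed at 894 to 1122 CPM in MOL within the NFOL range of 551 to 1732 CPM. Enpp6, a choline phosphodiesterase used as a marker of new oligodendrocytes, lay at 46.2 to 196 CPM in MOL and 80.9 to 259 CPM in NFOL, with overlapping libraries, and its range in MOL followed the Cnp genotype, as given further on.

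**Figure D1:**
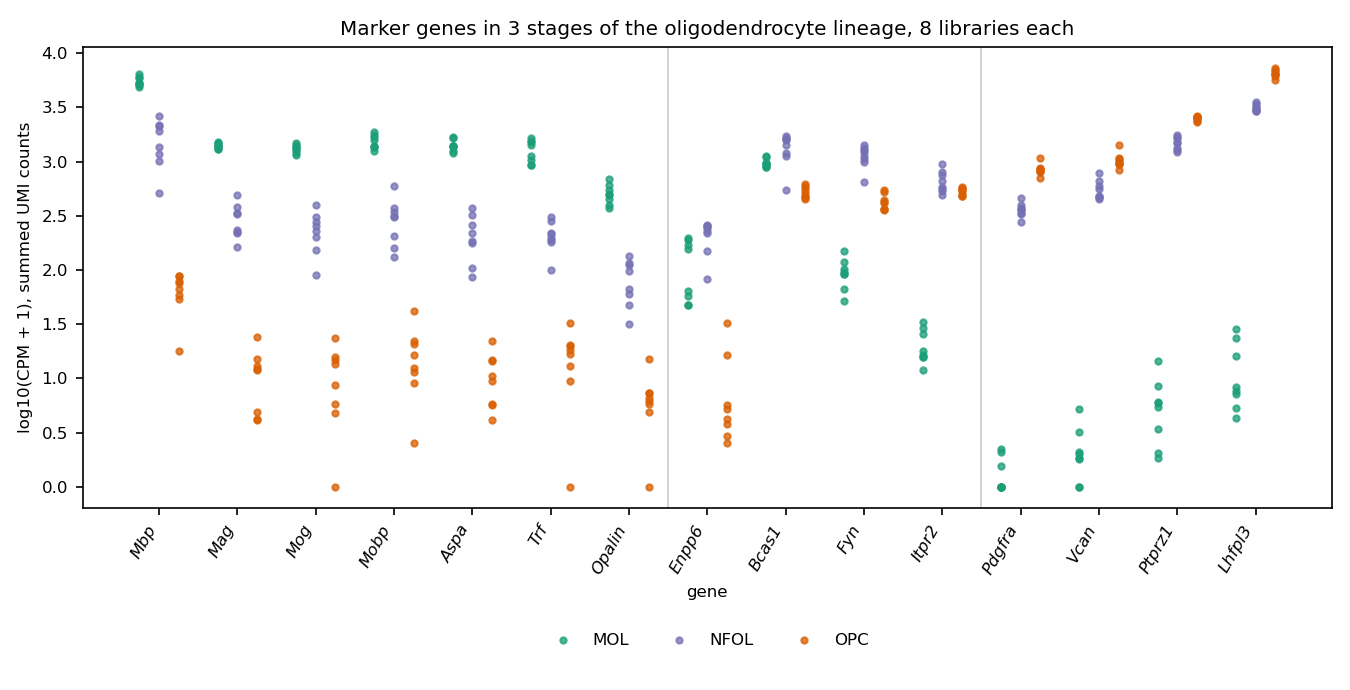
Levels of 15 marker genes in MOL, NFOL and OPC, as log10(CPM + 1), with 1 point for each of the 8 libraries. Mbp, Mag and Mog step up from OPC to MOL, Pdgfra, Vcan, Ptprz1 and Lhfpl3 step down, and Bcas1 stays within the NFOL range.

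The share of MOL among all nuclei did not separate the genotypes. It was 7.92% and 6.53% in WT, 11.6% and 7.38% in Cnp-/-, 13.7% and 7.61% in 5xFAD and 9.71% and 8.15% in Cnp-/- 5xFAD. The 2 replicates of 5xFAD and of Cnp-/- were farther apart than the genotype means. Cnp mutant libraries held 9.22% ± 1.87 (SD, n = 4) and Cnp intact libraries 8.94% ± 3.22 (n = 4; difference 0.281 percentage points, two-sided exact permutation test, p = 0.857), where 0.0286 is the smallest p that the 70 relabellings allow. For 5xFAD the difference was 1.43 percentage points (exact permutation p = 0.486), and it was of the opposite sign, at -4.75 percentage points, when only non-neuronal nuclei were counted.

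The share of NFOL among MOL and NFOL nuclei was higher in every library with the 5xFAD transgenes, though not past the threshold after adjustment. It was 5.39% and 4.72% in WT, 5.19% and 6.87% in Cnp-/-, 9.27% and 11.7% in 5xFAD and 8.74% and 8.62% in Cnp-/- 5xFAD. All 4 libraries with the 5xFAD transgenes lay above all 4 without them. The means were 9.59% ± 1.45 and 5.54% ± 0.927 (SD, n = 4 each), a difference of 4.04 percentage points with an exact permutation p of 0.0286, which became 0.129 after Benjamini-Hochberg adjustment over the 9 share tests. With only nuclei of at least 1000 UMIs the difference was 4.26 percentage points and the groups overlapped (exact permutation p = 0.0857). For Cnp loss the difference was -0.419 percentage points (exact permutation p = 0.8).

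Loss of Cnp was first checked on the gene itself. Cnp lay at 283 and 321 CPM in WT, 219 and 265 CPM in 5xFAD, 23.1 and 23.2 CPM in Cnp-/- and 24 and 32.8 CPM in Cnp-/- 5xFAD. Every library matched its label, with a residue in the mutants of 25.8 ± 4.72 CPM against 272 ± 42.4 CPM (SD, n = 4 each). The log2 fold change was -3.32 ± 0.17 (SE; edgeR's quasi-likelihood test, adjusted p = 0.000801). Cnp lies on chromosome 11 from 100574904 to 100591729 on the plus strand (GRCm38). Only Abca8a of the 141 tested genes within 10 Mb of Cnp also passed the test, beside 67 of all 8761 genes tested (0.765%). The 66 of these 67 with a single position were spread over 19 chromosomes.

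Averaged over both 5xFAD backgrounds, loss of Cnp changed 67 of 8761 genes in MOL (0.765%) at an adjusted p of at most 0.05: 39 rose (0.445%) and 28 fell (0.320%). At an unadjusted p under 0.05 there were 1052 genes. With DESeq2 512 genes passed, of which 222 rose and 290 fell, so the count and the balance of directions depended on the method. The 67 genes had the same sign in the WT and in the 5xFAD background, and in each of them the 4 mutant and the 4 intact libraries did not overlap, as was so for 867 of all genes (9.90%; 347 higher, 3.96%, and 520 lower, 5.94%). The 67 were picked by a test on these same libraries that favours such genes, so neither property is separate support for them. The number depended on single libraries: it was 29 without WT replicate 1, 12 without WT replicate 2, 262 without Cnp-/- replicate 1, 20 without Cnp-/- replicate 2, 3 without 5xFAD replicate 1, 2 without 5xFAD replicate 2, 29 without Cnp-/- 5xFAD replicate 1 and 7 without Cnp-/- 5xFAD replicate 2. Cnp and C4b passed in all 8 of these fits and no other gene did. Of the 39 that rose 19, and of the 28 that fell 13, passed in only 1 of the 8. With 2 libraries a genotype, 4 genes passed between Cnp-/- and WT (Cnp, C4b, Gramd1b and Adamtsl3) and 2 between Cnp-/- 5xFAD and 5xFAD (Cnp and Cadps). Of the genes that rose, 8 of 39 (20.5%) had a higher mean in neurons than in MOL, and of those that fell 10 of 28 (35.7%), beside 32.8% of all genes tested.

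**Figure D2:**
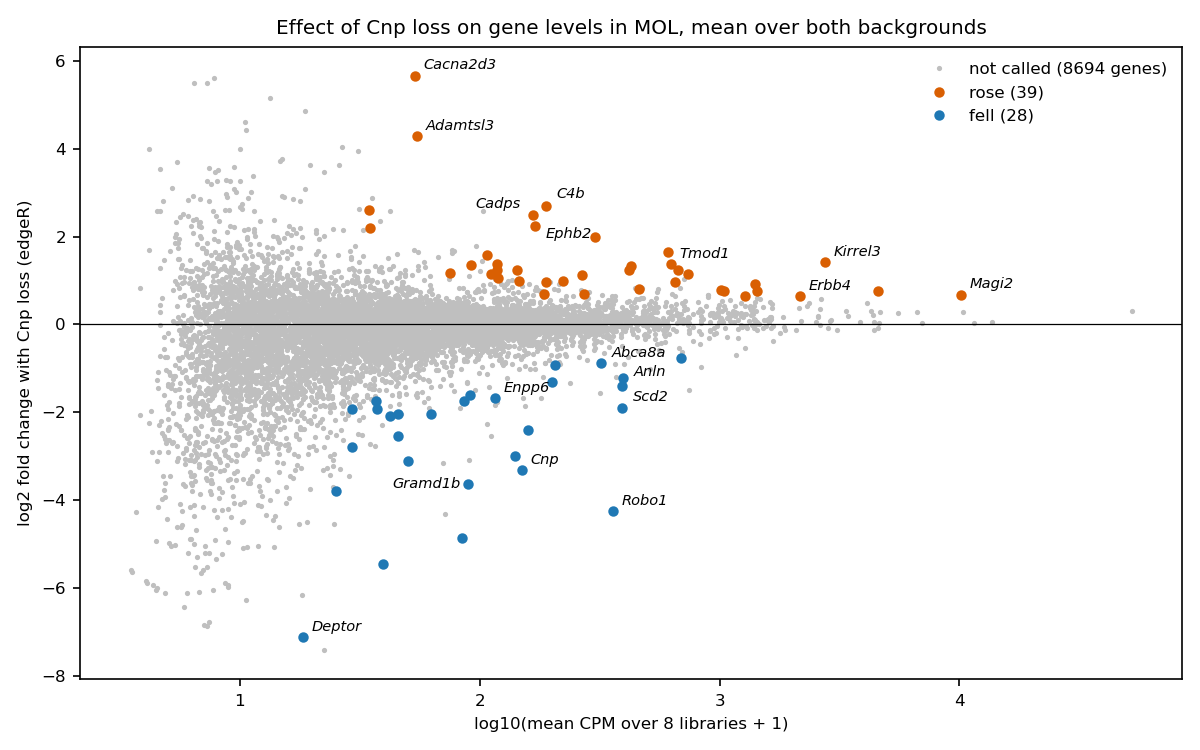
Log2 fold change with Cnp loss in MOL against the mean level, as log10(mean CPM + 1), with 1 point per gene. The 39 genes that rose and the 28 that fell are coloured over the 8694 that did not pass, and they cover the range from low to high mean levels.

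C4b, a complement component and a marker of disease-associated oligodendrocytes, was higher in every mutant library. It lay at 15.5 and 16.9 CPM in WT, 290 and 300 CPM in Cnp-/-, 170 and 112 CPM in 5xFAD and 305 and 297 CPM in Cnp-/- 5xFAD. The 4 mutant libraries were close to each other at 298 ± 6.34 CPM (SD, n = 4), with or without amyloid, whereas the intact libraries ranged widely around 78.7 ± 76.0 CPM, low in WT and intermediate in 5xFAD. The log2 fold change was 2.70 ± 0.18 (edgeR's quasi-likelihood test, adjusted p = 0.00291). It was 4.26 ± 0.28 between Cnp-/- and WT (adjusted p = 0.00301) and 1.15 ± 0.23 between Cnp-/- 5xFAD and 5xFAD (adjusted p = 0.261), and the difference between those changes did not pass (-3.11 ± 0.36, adjusted p = 0.279). C4b lies on chromosome 17 from 34728380 to 34743882 on the minus strand (GRCm38), and its close paralog C4a, whose reads can be hard to tell apart, held 9 UMIs over all MOL.

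The share of nuclei with a C4b UMI was higher in each mutant library. To compare libraries at equal depth, each nucleus was thinned to 825 UMIs, and nuclei below that number (12 to 154 per library) were left out. The share of MOL nuclei with at least 1 C4b UMI was then 1.46% and 1.33% in WT, 17.8% and 19.1% in Cnp-/-, 11.3% and 6.42% in 5xFAD and 20.3% and 20.7% in Cnp-/- 5xFAD. Mutant libraries lay above all intact ones, at 19.5% ± 1.28 against 5.12% ± 4.73 (SD, n = 4 each; exact permutation p = 0.0286, 0.129 after Benjamini-Hochberg adjustment over the 9 share tests). Without thinning the shares were 2.77% and 3.38% in WT, 28.6% and 26.4% in Cnp-/-, 18.4% and 11.5% in 5xFAD and 31.2% and 29.2% in Cnp-/- 5xFAD, which is 18 of 650 nuclei in WT replicate 1 and 266 of 931 in Cnp-/- replicate 1. In neurons, which should carry little of this transcript, the unthinned share was 1.24% and 1.05% in WT and 3.48% and 3.16% in Cnp-/-. It was 2.04% and 1.52% in 5xFAD and 3.53% and 1.41% in Cnp-/- 5xFAD. The median depth was 9105 UMIs in neurons against 1515 UMIs in MOL. In WT too, the unthinned share in MOL was above that in neurons, at the lower depth. In NFOL the thinned share was 4.01% and 0.597% in WT and 7.16% and 6.15% in Cnp-/-. There it was 2.69% and 3.42% in 5xFAD and 5.27% and 3.74% in Cnp-/- 5xFAD. The source of the C4b UMIs outside MOL was not tested.

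Of the 19 genes of the disease-associated list 9 could be tested. C4b rose and none fell, beside 0.445% and 0.320% of all genes. At an unadjusted p under 0.05 there were 6 of the 9, beside 1052 of 8761 over all genes, and 3 lay higher and 2 lower without overlap (3.96% and 5.94% of all genes). Serpina3n, a serine protease inhibitor often raised with C4b, was found in 0 to 0.802% of thinned MOL nuclei (difference 0.380 percentage points, exact permutation p = 0.0571, adjusted 0.171). Il33 was found in 26.3% to 32.0% of thinned nuclei, with a difference of 0.487 percentage points (exact permutation p = 0.8). Stat3, a transcription factor of cytokine signalling, lay at 142 ± 12.2 CPM in the mutants and 84.7 ± 27.7 CPM in the intact libraries (adjusted p = 0.0886). None of the 5 tested genes of the interferon and antigen list (16 genes) passed, nor did any of the 4 tested genes of the cell death list (13 genes).

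**Figure D3:**
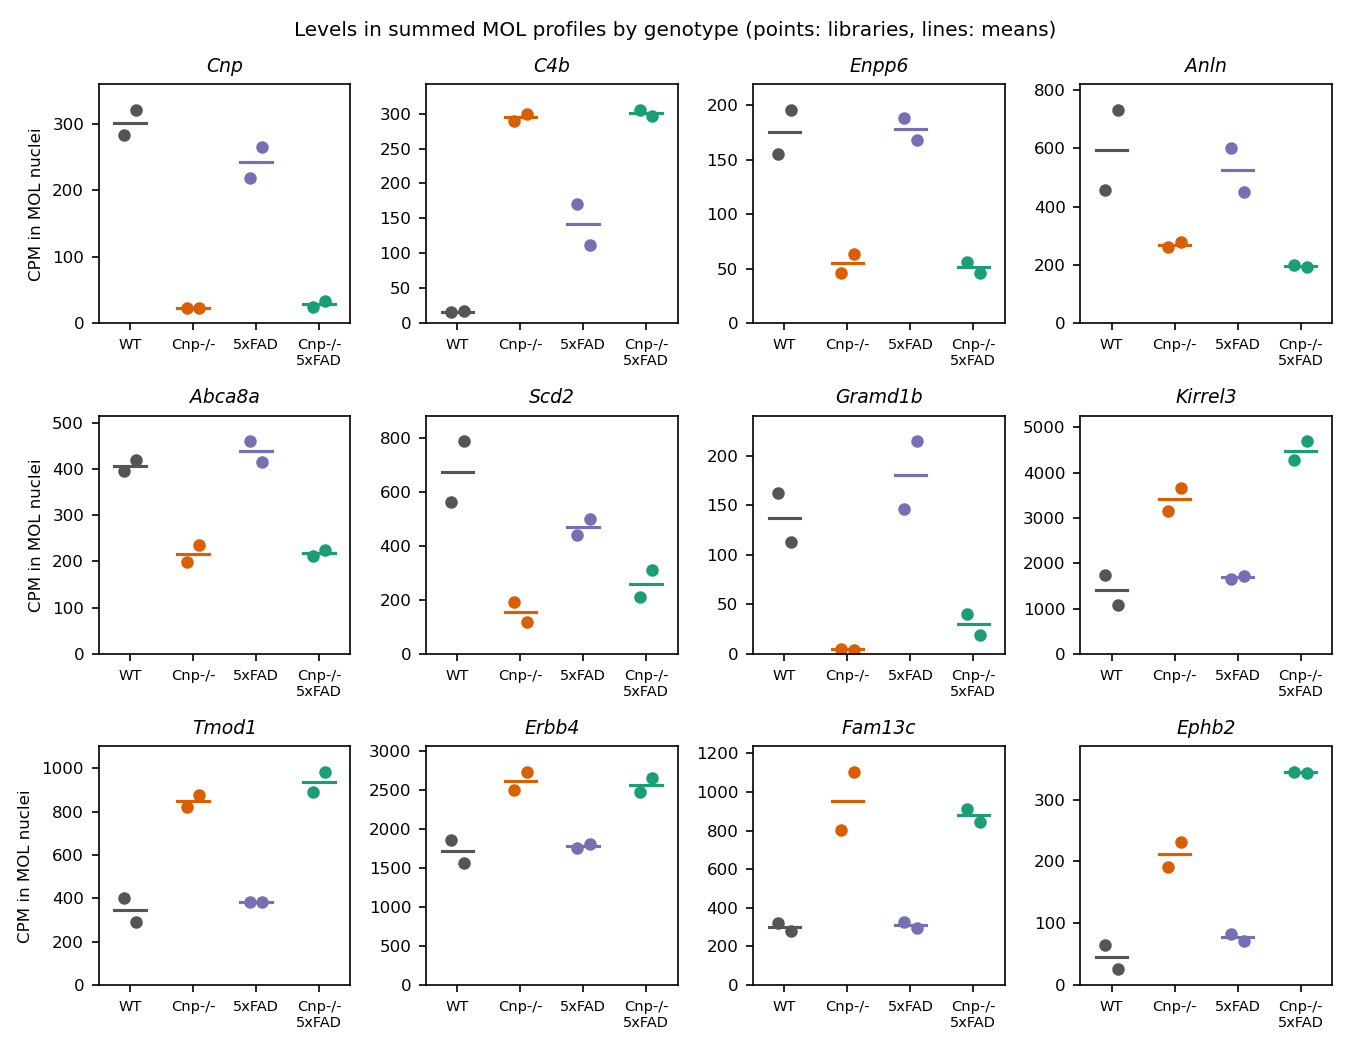
CPM of 12 genes in MOL by genotype, with points for libraries and lines for the mean of the 2 libraries. Cnp, Enpp6, Anln, Abca8a, Scd2 and Gramd1b are lower, and C4b, Kirrel3, Tmod1, Erbb4, Fam13c and Ephb2 higher, in both Cnp mutant genotypes.

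A pair of complement-related genes rose with C4b. Masp1, a serine protease that starts the lectin pathway of complement, lay at 8.63, 3.17, 57.9, 67.1, 19.4, 11.2, 37.2 and 64.6 CPM. All mutant libraries were above all intact ones (log2 fold change 2.60 ± 0.42, adjusted p = 0.0431). Csmd2, a large membrane protein with complement control domains, lay at 224, 79.3, 470, 502, 119, 87.3, 488 and 436 CPM (1.98 ± 0.29, adjusted p = 0.0326). Its lowest mutant library was above the highest intact one, WT replicate 1. These 2 genes were grouped after their values were seen.

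Of 16 structural genes of the myelin sheath, Cnp alone passed, beside 0.765% of all genes. At an unadjusted p under 0.05 there were 7 of the 16, beside 1052 of 8761 over all genes, and 2 lay higher and 1 lower without overlap, beside 3.96% and 5.94% of all genes. The log2 fold change was positive in 10 and negative in 6, with a median of 0.07 beside -0.03 over all genes. Mbp lay at 5182, 5372, 5930, 6393, 5343, 4875, 5108 and 6062 CPM (log2 fold change 0.25 ± 0.10, adjusted p = 0.347). Its mutant and intact libraries overlapped, as did those of Mag (0.11, adjusted p = 0.735) and Mog (0.08, adjusted p = 0.812). None of 13 oligodendrocyte transcription factors passed; the nearest was Zfp536, a zinc finger repressor, at 2358, 1948, 3096, 3414, 2318, 2107, 3005 and 2909 CPM (0.58, adjusted p = 0.0553). None of the 12 MOL markers passed either (median 0.09), though 6 had an unadjusted p under 0.05, beside 1052 of 8761 over all genes. Of the 12, 1 lay higher and 2 lower without overlap, beside 3.96% and 5.94% of all genes.

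Among the genes that join the sheath to the axon and to its own cytoskeleton, Anln fell. It encodes anillin, which binds septins and actin. It lay at 456 and 731 CPM in WT, 602 and 449 CPM in 5xFAD, 260 and 278 CPM in Cnp-/- and 200 and 191 CPM in Cnp-/- 5xFAD. All mutant libraries were below all intact ones, at 232 ± 43.3 against 560 ± 135 CPM (log2 fold change -1.21 ± 0.18, adjusted p = 0.0353). Anln was the 1 of 16 genes of the myelin cytoskeleton that passed, beside 0.765% of all genes (median 0.13). Of the 16, 6 had an unadjusted p under 0.05, beside 1052 of 8761 over all genes, and 3 lay higher and 3 lower without overlap, beside 3.96% and 5.94% of all genes. None of 17 axoglial genes passed (median -0.04). Ank3, the nodal anchor ankyrin-G, and Nfasc, the neurofascin of nodes and paranodes, were higher in the mutants without passing (0.48, adjusted p = 0.0612, and 0.55, adjusted p = 0.0798).

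Of 22 tested genes of cholesterol and fatty acid synthesis (25 in the list) 18 had a negative and 4 a positive log2 fold change, with a median of -0.39 beside -0.03 over all genes, and 5 lay lower without overlap and none higher (5.94% and 3.96% of all genes). In the interaction 18 of the 22 were positive, beside 4361 of 8761 over all genes, with a median of 0.44 beside -0.002 and none past the threshold, that is, less negative or positive on the 5xFAD background. The 1 of the 22 that passed for Cnp loss, beside 0.765% of all genes, was Scd2, the stearoyl-CoA desaturase of brain. It lay at 564, 790, 191, 118, 443, 502, 212 and 311 CPM. Its highest mutant library, Cnp-/- 5xFAD replicate 2, was below its lowest intact one (-1.41 ± 0.20, adjusted p = 0.0326). Like 13 of the 28 genes that fell, it passed in only 1 of the 8 fits that leave out a library. Its log2 fold change was -2.04 between Cnp-/- and WT and -0.78 between Cnp-/- 5xFAD and 5xFAD (adjusted p of the difference 1.00). Elovl5, a fatty acid elongase (-1.01, adjusted p = 0.0835), and Srebf1, the regulator of fatty acid synthesis genes (-0.94, adjusted p = 0.178), did not pass.

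In the list of lipid uptake, storage and efflux, 8 of 11 tested genes were negative (15 in the list, median -0.48), beside 4613 of all 8761, and 6 lay lower without overlap, beside 5.94% of all genes. The list holds the iron carrier Trf, which is among both the negative genes and those lower without overlap. Abca8a, a lipid transporter of the ABC family, lay at 395, 419, 198, 235, 460, 415, 211 and 225 CPM. It was lower in each mutant library by nearly the same amount, at 217 ± 16.3 against 422 ± 27.5 CPM (-0.88 ± 0.12, adjusted p = 0.0283). Gramd1b, which moves cholesterol from the plasma membrane to the endoplasmic reticulum and stands in none of the lists, fell further. It lay at 162, 113, 5.48, 3.66, 147, 215, 40.5 and 19.5 CPM. Its mutant libraries averaged 17.3 ± 17.0 against 159 ± 42.5 CPM, lowest in Cnp-/- (-3.62 ± 0.32, adjusted p = 0.00778). None of the 10 tested galactolipid genes passed (12 in the list, median -0.01). Ugt8a, which makes galactosylceramide, stood at -0.14 (adjusted p = 0.747) and Fa2h, which hydroxylates its fatty acid, at -0.23 (adjusted p = 0.561).

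None of the 7 tested genes of iron and oxidative stress (14 in the list) passed. Their median was -1.25, with 6 negative and 1 positive, and 2 lay lower without overlap, beside 5.94% of all genes. Fth1, the heavy chain of the iron store ferritin, lay at 413, 797, 73.7, 160, 345, 363, 184 and 201 CPM. Every mutant library was below every intact one (-1.56, adjusted p = 0.0709). The same was so for Trf, which is in the lipid uptake list and not in the iron list. Trf lay at 1430, 1666, 940, 1027, 1544, 1519, 931 and 1116 CPM (-0.54, adjusted p = 0.0798). None of the 9 tested genes of energy supply passed (12 in the list, median 0.06).

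Enpp6 fell in MOL. It lay at 155 and 196 CPM in WT, 189 and 168 CPM in 5xFAD, 46.3 and 63.4 CPM in Cnp-/- and 56.2 and 46.2 CPM in Cnp-/- 5xFAD. The groups stood far apart at 53 ± 8.38 against 177 ± 18.5 CPM (log2 fold change -1.67 ± 0.19, adjusted p = 0.016). It was the 1 of 10 tested NFOL markers (12 in the list) that passed, beside 0.765% of all genes, and the median over the 10 was 0.22. Of the 10, 1 lay lower without overlap and none higher, beside 5.94% and 3.96% of all genes. Within NFOL the log2 fold change of Enpp6 was 0.45 (adjusted p = 0.50), and the difference between MOL and NFOL did not pass (-2.12, adjusted p = 0.0602). None of the 16 tested genes of regional MOL states (20 in the list) passed; 11 of them were negative, beside 4613 of all 8761, and 7 lay lower without overlap, beside 5.94% of all genes. None of the 4 tested OPC markers, the 2 neuron markers, the 3 astrocyte markers or the 1 microglia marker that could be tested passed, with medians of -0.34, -1.26, -0.34 and 0.68, and no endothelial or pericyte marker could be tested.

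In the list of the unfolded protein and integrated stress responses, 1 of 7 tested genes (18 in the list) passed, beside 0.765% of all genes. Of the 7, 2 lay lower without overlap and none higher, beside 5.94% and 3.96% of all genes. Herpud1, which helps to clear misfolded proteins from the endoplasmic reticulum, lay at 52.7, 35.9, 18.3, 8.54, 56.1, 50.4, 4.13 and 2.05 CPM. It was lower in every mutant library (-2.79 ± 0.41, adjusted p = 0.0326). It was lowest in Cnp-/- 5xFAD, a ranking that rests on few counts, since replicate 2 lay under 3 counts (3.08 CPM). Other genes with roles in protein turnover and growth control fell with Herpud1, a grouping made after the values were seen. Lamtor1, a subunit of the lysosomal complex that activates mTORC1, stood at -1.94 and Rps27, a ribosomal protein, at -1.92. Mycbp2, a large ubiquitin ligase, fell from 882 ± 65.3 to 497 ± 65.5 CPM. Deptor, an inhibitor bound to mTOR, held 1 UMI in the mutants and 184 in the intact libraries, a ratio of 178 (95% counting interval 31.6 to 7072).

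Among growth factor and signalling receptors, Erbb4 was the 1 of 13 tested genes (20 in the list) that passed, beside 0.445% of all genes that rose. Of the 13, 5 had an unadjusted p under 0.05, beside 1052 of 8761 over all genes, and 2 lay higher and 1 lower without overlap, beside 3.96% and 5.94% of all genes. It is a receptor for neuregulins, which axons present to oligodendrocytes. It lay at 1867, 1566, 2506, 2734, 1758, 1808, 2484 and 2654 CPM. The mutant libraries averaged 2595 ± 120 and the intact ones 1750 ± 130 CPM, a modest and even rise (0.64 ± 0.09, adjusted p = 0.0326). A further 3 receptor genes outside this list that also rose are given after their values were seen. Ephb2, which binds ephrin-B ligands, went from 61.4 ± 24.4 to 278 ± 78.4 CPM (2.25 ± 0.25, adjusted p = 0.016). Dcc, a netrin receptor, rose by 1.14 and Grik2, a kainate-type glutamate receptor subunit, by 0.77 on the log2 scale.

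**Figure D4:**
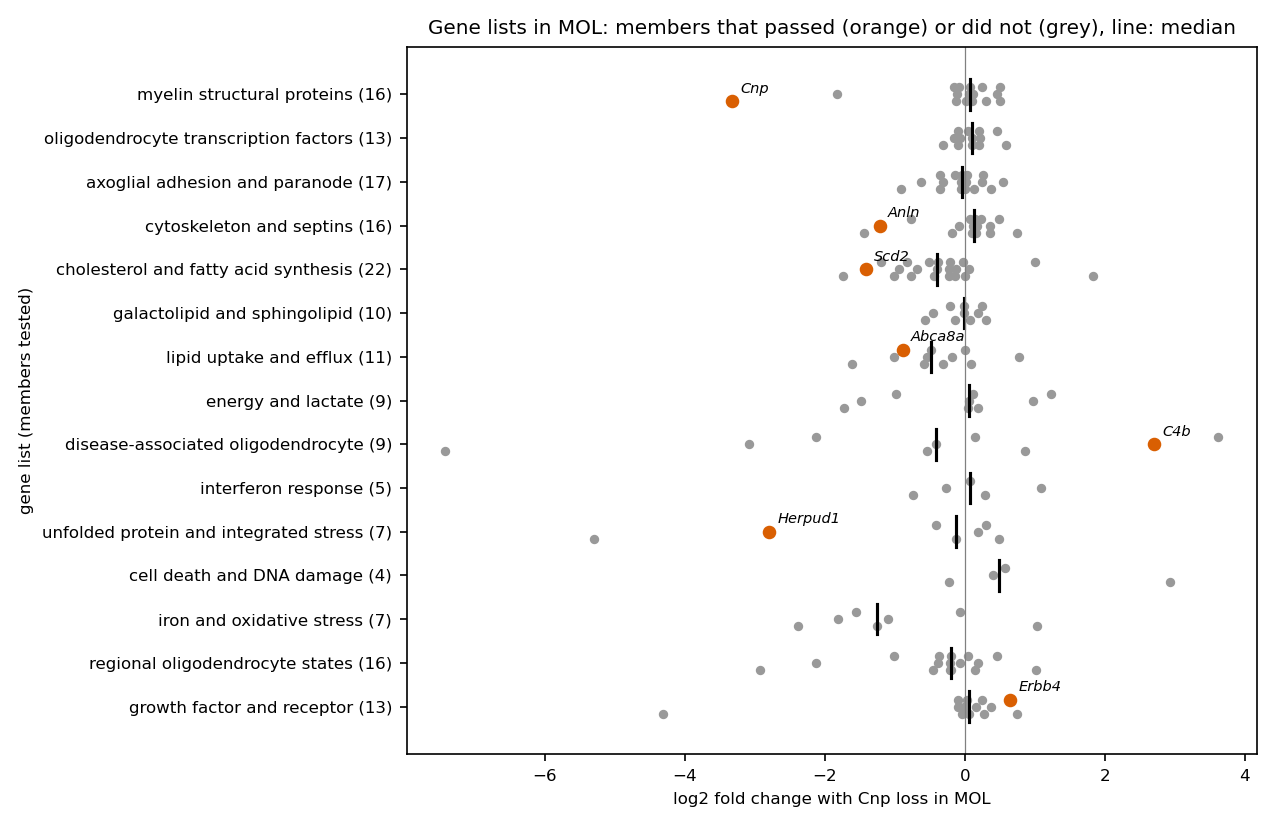
Log2 fold changes with Cnp loss in MOL of the tested members of 15 gene lists, with a line at each list's median and passed members in orange. Cholesterol and fatty acid synthesis (median -0.39), lipid uptake and efflux (-0.48) and iron (-1.25) lie left of 0, and myelin structural genes centre at 0.07.

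Of the other genes that rose, several are named here after their values were seen, which makes no statement on any class of genes. No member of the cytoskeleton and axoglial lists passed the threshold as a rise. Tmod1, which caps the slow-growing ends of actin filaments, lay at 400, 291, 822, 877, 382, 385, 889 and 983 CPM. Its mutant libraries averaged 893 ± 66.9 against 364 ± 49.7 CPM (1.37 ± 0.12, adjusted p = 0.00778). The formins Fmn1 (1.25) and Daam1 (0.78), the kinase Pak1 (0.66), the GTPase Rhoj (1.25) and the unconventional myosin Myo18a (0.81) rose as well. Kirrel3, an immunoglobulin-type adhesion protein, lay at 1743, 1088, 3159, 3669, 1658, 1730, 4267 and 4695 CPM (1.41 ± 0.15, adjusted p = 0.016). It was highest in Cnp-/- 5xFAD and its groups did not overlap. Cdh6, a cadherin, rose by 1.59 ± 0.19 on the log2 scale (adjusted p = 0.0179), and Cldn14, a claudin, from 132 ± 24 to 243 ± 28.4 CPM. Magi2, a scaffold at cell junctions, was among the most abundant genes of MOL and rose from 8069 ± 439 to 12290 ± 698 CPM (0.68 ± 0.09, adjusted p = 0.0273).

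The remaining genes among the 10 largest changes in each direction were as follows. Pdxk, pyridoxal kinase, rose from 12.7 ± 3.47 to 55.1 ± 10.9 CPM (2.19 ± 0.32). The genes A330072L02Rik and A530053G22Rik fell by 5.47 and 4.87 on the log2 scale, Slc50a1, a sugar transporter, by 3.79, and Epdr1, a secreted ependymin-related protein, by 3.11. All 5 had an adjusted p between 0.0209 and 0.0372.

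Larger rises were those of Cadps, Cacna2d3 and Adamtsl3. Cadps, a priming factor for dense-core vesicles, lay at 56.1, 68.7, 175, 198, 36.1, 42.5, 487 and 270 CPM (2.50 ± 0.22, adjusted p = 0.00778). Cacna2d3, an auxiliary subunit of voltage-gated calcium channels, lay at 0, 12.7, 51.2, 31.7, 0.555, 0, 142 and 183 CPM (5.67 ± 0.84, adjusted p = 0.0326). Cadps and Cacna2d3 were both highest in Cnp-/- 5xFAD. Cacna2d3 held only 13 UMIs over the intact libraries, with 2 of them at 0, so the size of its rise is uncertain. Adamtsl3, a matrix glycoprotein related to the ADAMTS proteases, went from 0.863 and 1.06 CPM in WT to 60.9 and 128 CPM in Cnp-/-, with 26.6 and 22.4 CPM in 5xFAD and 90.1 and 102 CPM in Cnp-/- 5xFAD (4.29 ± 0.39, adjusted p = 0.00778). The WT values of Adamtsl3 lie below 3 counts, which correspond to 2.59 and 3.17 CPM, so the size of its rise is uncertain. As for C4b, the 5xFAD libraries stood between WT and the mutants.

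Among the genes that fell were 4 of adhesion and guidance with high levels in neurons, chosen after their values were seen. Robo1, a receptor for Slit proteins, lay at 603, 1066, 15.8, 32.9, 700, 353, 84.3 and 9.23 CPM (-4.25 ± 0.59, adjusted p = 0.0318). The contactin Cntn3 lay at 212, 438, 50.6, 31.7, 230, 113, 19.0 and 19.5 CPM (-2.99 ± 0.35, adjusted p = 0.0179), and Opcml, an IgLON adhesion protein, at 79.4, 78.2, 4.87, 6.1, 72.1, 63.8, 19.0 and 33.9 CPM (-2.53 ± 0.30, adjusted p = 0.0179). Nlgn1, a synaptic adhesion protein, lay at 304, 479, 30.5, 53.7, 181, 120, 66.1 and 25.7 CPM (-2.41 ± 0.35, adjusted p = 0.0326). In each the highest mutant library was below the lowest intact one. Neurons held means of 931 CPM for Robo1, 498 for Cntn3, 3060 for Opcml and 3036 for Nlgn1. High levels were not limited to neurons, since OPC held means of 900, 87.3, 4917 and 4668 CPM for these genes. Some genes that rose also had high means in neurons, at 1162 CPM for Cadps, 797 for Cacna2d3 and 436 for Csmd2. In OPC their means were 603, 369 and 939 CPM. The mean in neurons was above that in MOL for 10 of the 28 genes that fell and 8 of the 39 that rose. The summed neuron markers in MOL were 18.0 to 271 CPM in the intact and 2.05 to 57.9 CPM in the mutant libraries. Their part in the changes of these genes was not tested.

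No gene passed for the 5xFAD transgenes in MOL at this depth by edgeR's quasi-likelihood test (0 of 8761, 0.00%). At an unadjusted p under 0.05 there were 326 genes (3.72%), DESeq2 called 6, and the libraries with and without the transgenes did not overlap in 176 genes (2.01%). C4b had a log2 fold change of 1.55 ± 0.18 for 5xFAD (adjusted p = 0.289). The interaction of Cnp loss and 5xFAD gave 0 genes as well (0.00%), with 299 at an unadjusted p under 0.05 (3.41%) and 10 by DESeq2. No gene of any of the 22 lists passed in either comparison.

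To ask which effects of Cnp loss differed between MOL and the earlier stages, the effect in MOL was tested against that in OPC and in NFOL of the same libraries. It differed from OPC in 15 of 8687 genes (0.173%; 10 higher, 0.115%, and 5 lower, 0.0576%), of which 11 had also passed in MOL, and from NFOL in 7 of 8049 genes (0.0870%; 4 higher, 0.0497%, and 3 lower, 0.0373%), of which 6 had. All 7 were among the 15. These counts also rested on single libraries: against OPC no gene passed without Cnp-/- replicate 1 or 2 or without 5xFAD replicate 1 or 2, 6 passed without either WT replicate, and 4 and 3 without Cnp-/- 5xFAD replicates 1 and 2. Against NFOL 0 passed without Cnp-/- replicate 1 or 5xFAD replicate 1, 1 without Cnp-/- replicate 2, and 5 to 9 without any other library. Within OPC alone edgeR's quasi-likelihood test called 0 of 9264 genes (0.00%; 393 at an unadjusted p under 0.05), and within NFOL alone 116 of 7248 (1.60%).

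Gramd1b fell in MOL by 3.62 on the log2 scale and stood at -0.08 ± 0.12 in OPC and -0.35 ± 0.18 in NFOL. Its level was 131 to 188 CPM in OPC and 122 to 229 CPM in NFOL, much as in intact MOL, and the differences between MOL and these stages were -3.53 ± 0.29 (adjusted p = 0.0136) and -3.23 ± 0.38 (adjusted p = 0.00938). Cadps stood at 0.03 ± 0.08 in OPC and 0.28 ± 0.16 in NFOL (differences 2.48, adjusted p = 0.0266, and 2.25, adjusted p = 0.0181). Fam13c, which rose from 306 ± 22.5 to 916 ± 133 CPM in MOL, stood at 0.22 ± 0.17 in OPC and -0.02 ± 0.16 in NFOL (differences 1.43, adjusted p = 0.0384, and 1.73, adjusted p = 0.0228). These 3 genes moved in MOL and were nearly level in both earlier stages.

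Genes that OPC hold at high levels gave the other differences. Opcml was at 4464 to 5465 CPM in OPC and 3102 to 4673 CPM in NFOL, and its effect differed by -2.69 ± 0.25 (adjusted p = 0.0182) and -2.67 ± 0.32 (adjusted p = 0.0102). Robo1 differed by -4.16 and -3.69, and Cacna2d3 by 5.72 and 5.49. Dner, a Notch ligand of neurons, differed by 4.05 and 4.46 while missing the threshold in MOL itself. Mark1, a microtubule affinity kinase, and Ctnnd2, a catenin of neurons, differed from OPC (3.90 ± 0.48 and -2.22 ± 0.28, adjusted p = 0.0384 each) and also missed the threshold in MOL (adjusted p = 0.0568 and 0.14).

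**Figure D5:**
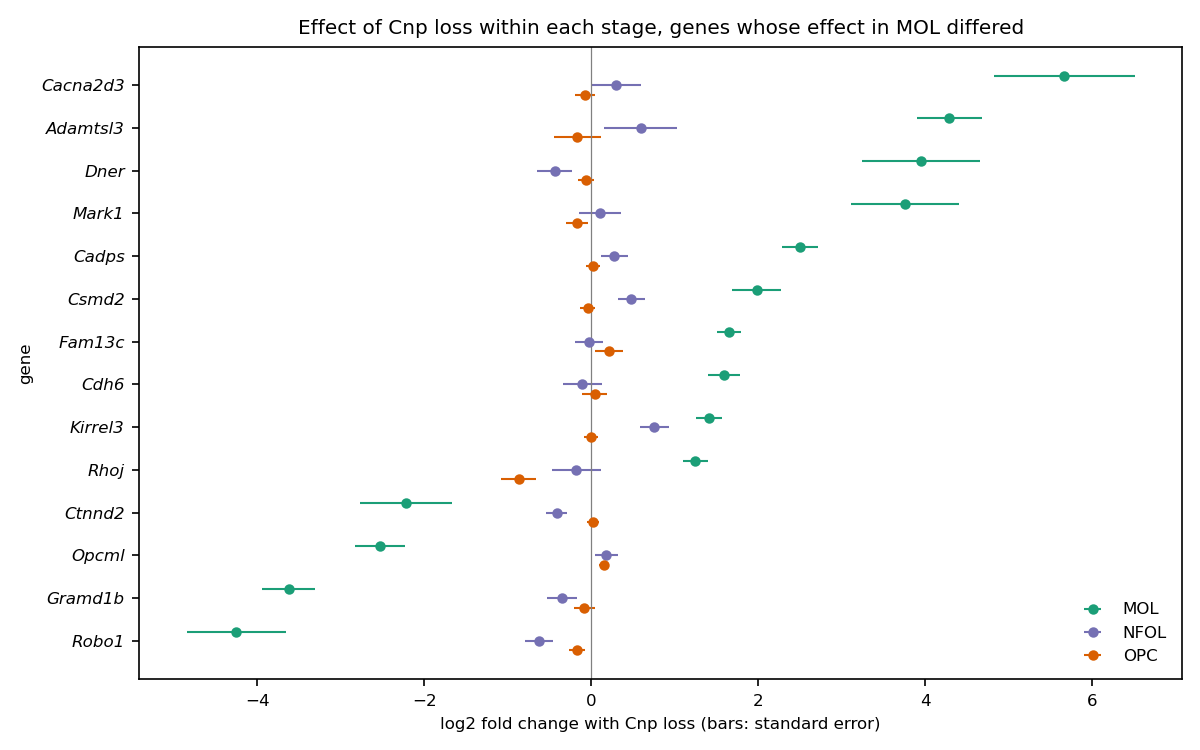
Log2 fold change with Cnp loss, with its SE, of 14 genes within MOL, NFOL and OPC, those of the 15 with a value in all 3 stages. Gramd1b, Opcml and Robo1 are low and Cadps and Fam13c high in MOL, while their values in OPC lie near 0.

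For Mbp and C4b no difference between the stages was shown. In NFOL, Mbp rose with Cnp loss by 1.18 ± 0.21 on the log2 scale (adjusted p = 0.0151), against 0.25 ± 0.10 in MOL, though the difference did not pass (-0.92 ± 0.33, adjusted p = 0.486). The 12 MOL markers summed to 5051 to 6075 CPM in the Cnp mutant NFOL and 1738 to 4421 CPM in the Cnp intact NFOL, and to 16837 to 20850 and 18451 to 21403 CPM in MOL. The 10 astrocyte markers within NFOL summed to 5171 to 5439 CPM in the mutant and 7144 to 11555 CPM in the intact libraries, without overlap and highest in WT replicate 1, where the MOL markers were lowest. Their part in the change of Mbp was not tested. For C4b the log2 fold change was 0.83 in OPC and 1.09 in NFOL (adjusted p = 0.144), and the difference between MOL and OPC did not pass (1.93, adjusted p = 0.416).

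The promoters of the changed genes were read from RefSeq (GRCm38.p6, 250 bases before to 50 after the start) for 28 of the 39 genes that rose and 20 of the 28 that fell and searched for 2 motifs. The letters TTCNNNGAA, the core to which STAT factors bind (the same on both strands), occurred in 2 of the 28 and 1 of the 20 promoters, 7.14% and 5.00%, beside 9.55% of 27025 genes. TCACNCCAC, the core of the sterol response element, occurred in none of either set beside 1.44% of all genes (both strands searched). These are matches of letters only. The 3 promoters with the first motif are printed to show where it lies in them, with the motif in capitals. Each lies inside its gene as GENCODE annotates it, downstream of the outermost start, and so belongs to an internal start. They belong to Tulp4, which rose by 0.91 and is at chr17:6137898-6138197 (plus strand), Cldn14, which rose by 0.96 and is at chr16:93929768-93930067 (minus strand), and Cntn3, which fell by 2.99 and is at chr6:102464618-102464917 (minus strand).
Tulp4: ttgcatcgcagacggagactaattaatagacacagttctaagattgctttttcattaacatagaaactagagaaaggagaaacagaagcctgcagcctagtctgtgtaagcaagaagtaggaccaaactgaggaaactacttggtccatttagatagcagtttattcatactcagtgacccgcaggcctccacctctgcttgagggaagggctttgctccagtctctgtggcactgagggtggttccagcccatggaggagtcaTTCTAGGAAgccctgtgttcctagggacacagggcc
Cldn14: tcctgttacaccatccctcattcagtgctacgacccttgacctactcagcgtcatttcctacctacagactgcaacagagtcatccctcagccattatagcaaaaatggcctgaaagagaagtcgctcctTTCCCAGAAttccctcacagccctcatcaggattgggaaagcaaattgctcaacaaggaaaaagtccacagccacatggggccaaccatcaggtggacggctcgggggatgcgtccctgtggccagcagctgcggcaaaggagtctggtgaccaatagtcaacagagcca
Cntn3: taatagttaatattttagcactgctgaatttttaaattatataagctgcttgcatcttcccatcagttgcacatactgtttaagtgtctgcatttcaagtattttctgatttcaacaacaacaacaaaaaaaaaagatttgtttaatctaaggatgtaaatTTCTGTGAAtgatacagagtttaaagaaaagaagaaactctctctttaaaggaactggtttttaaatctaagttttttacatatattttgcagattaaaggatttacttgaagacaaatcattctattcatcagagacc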

How the data were processed

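The deposited UMI count table holds whole counts per gene and nucleus for 32285 genes. The authors made it with Cell Ranger 6.1.2 and the mm10 reference, CellBender removal of ambient RNA, and filters on genes and UMIs per nucleus, and they removed undefined clusters. Whether intronic reads were counted and how doublets were treated is not given in the sources used here. The mitochondrial percent that the authors deposited for each nucleus was only checked. A separate count table of microglia was not used.

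Counts of MOL, NFOL and OPC nuclei, as annotated by the authors, were summed per library. Genes were filtered with filterByExpr (minimum count 10), scaled by TMM and fitted with 4 genotype means in edgeR 4.0.16 (quasi-likelihood test, R 4.3.3), with Benjamini-Hochberg adjustment over all genes tested. Adjusted p-values in the text are from this test, and DESeq2 1.42.0 was an alternative. Effects in MOL were set against those in OPC and NFOL with the library as a block. The within-stage values are from the same model fitted to that stage alone. For shares, the exact permutation test over libraries was two-sided (scipy 1.17.1). Scripts were tested on simulated data. The 95% intervals and the floor of 3 counts cover counting error only.

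The members, the 22 gene lists (326 symbols) and the tests were chosen with earlier results of these data known. Named genes were the 10 largest changes in each direction, up to 6 members of each list that passed and its 3 most abundant members, up to 5 genes of each stage difference, and Cnp. Other genes named in the text were chosen after their values were seen. Results for some genes are not reported here.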

Additional observations from a re-analysis of the deposited data

Results flagged for a closer look

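Single libraries stood apart from the others of their group of 4 for 3 genes, among 68 such groups examined, where chance gives about 1 in 20. Cnp in Cnp-/- 5xFAD replicate 2, at 32.8 CPM, was above the other mutant libraries. Deptor in Cnp-/- 5xFAD replicate 1, at 0.827 CPM (1 UMI), was the only mutant library above 0. Cacna2d3 in WT replicate 2, at 12.7 CPM, was above the other Cnp intact libraries.

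The effect of Cnp loss differed between MOL and OPC by edgeR's quasi-likelihood test, on the log2 scale, by -3.53 for Gramd1b, -2.69 for Opcml, 2.48 for Cadps, 3.90 for Mark1 and -2.22 for Ctnnd2. It differed between MOL and NFOL by 5.49 for Cacna2d3, 4.46 for Dner, -3.23 for Gramd1b, -2.67 for Opcml and 2.25 for Cadps.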

How the results depend on the processing

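The number of genes that passed for Cnp loss was 544 with no filter on low counts (201 rose and 343 fell), 512 with DESeq2 (222 and 290), 103 with nuclei of at least 1000 UMIs and 101 with the same number of nuclei (444) from each library. It was 4 for Cnp-/- against WT, 2 for Cnp-/- 5xFAD against 5xFAD, and 2 to 262 when 1 library was left out, with 95 up and 167 down in the 262 without Cnp-/- replicate 1. In these 3 settings more genes fell than rose, against 39 that rose and 28 that fell in the report. DESeq2 called 6 genes for 5xFAD and 10 for the interaction. With no filter there were 37 and 44, and 242 and 150 for the difference of MOL from OPC and from NFOL. Leaving out 1 library gave 0 to 6 genes for the difference from OPC and 0 to 9 for that from NFOL. The 5xFAD difference in the NFOL share was 4.26 percentage points with nuclei of at least 1000 UMIs and 3.33 to 4.49 without 1 library, and the difference in the C4b share 13.1 to 16.4 percentage points. With 7 libraries the exact test cannot go below 0.0571, so the last 2 ranges show size only. The cause of the other shifts was not tested.

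The replicate numbers did not pair the libraries, with correlations of same-numbered libraries' deviations from -0.0883 to 0.161. With a replicate block, 23 genes passed for Cnp loss (16 rose and 7 fell), of which 21 had passed without it. The 5xFAD difference in the MOL share, which had not passed, turned from 1.43 to -4.75 percentage points among non-neuronal nuclei. With 2 libraries a genotype and a biological coefficient of variation of 0.466, small changes may have been missed at this depth.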

Other observations

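Of the 8761 genes tested in MOL, 529 lay over 10-fold apart between the 2 libraries of at least 1 genotype once values under 3 counts were raised to that floor, and by this measure none of the 67 genes that passed for Cnp loss was among them. Genes with so wide a spread could hardly pass the test, so this is no separate support for the 67. Of the 39 genes that rose 36 code for proteins and 3 are long noncoding RNAs. Of the 28 that fell 21 code for proteins and 6 are long noncoding RNAs. In the fits that leave out 1 library, 10 of the 39 and 3 of the 28 passed in at least 4 of the 8.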
